A study of Mus musculus with 9 samples.

Results

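The transcription factor genes Tbx21, Eomes, Maf, Zbtb16, Sox13, Sox4, Prdm1, Bcl6 and Irf4 direct effector and innate-like T cell fates. They were chosen by symbol, and all 9 were found among the 46078 genes of the count table. Sequencing of transcript 3′ ends was applied to RNA from 6 lymphoma samples and 3 control samples of C57BL/6J mice. The lymphoma samples (numbered 34, 53, 56, 70, 72 and 86) are, per the labels, T cell lymphoma cells of the thymus induced by MYCN, a transcription factor of the MYC family. The controls (CD4 1, 2 and 3) are CD4+ T cells of the spleen. The labels give no promoter for the MYCN transgene, no age, sex or treatment, and do not say whether each library came from a separate animal, so p-values measure the spread between these samples.

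T cells acquire their functions under a small set of transcription factors. Tbx21 (T-bet) and Eomes are T-box factors of type 1 effector, memory and natural killer (NK) cells. Zbtb16 encodes PLZF, the factor that gives natural killer T cells and some γδ T cells their innate-like behaviour. Maf and the HMG-box factors Sox13 and Sox4 act in γδ T cells that make interleukin 17, and Maf also acts in helper and regulatory T cells. Bcl6 directs follicular helper T cells and germinal centre B cells, Prdm1 (Blimp-1) directs terminal effector cells and plasma cells, and these repressors oppose each other. Irf4 is induced by antigen receptor signals and acts beside both.

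Windows of 150 bases before the RefSeq transcription start (GRCm38.p6) were read for 7 of the 9 genes, Bcl6 having 2 windows. Short motifs were searched on both strands: CACGTG (the E-box of the MYC family), TATAAA and CCAAT. The 4 windows printed were chosen because together they hold each motif and belong to factors with unlike levels in lymphoma. Each reads 5′ to 3′ on the gene's strand and ends at the base before the start. Capitals mark the motif, and ATTGG is CCAAT on the opposite strand. The first is Bcl6 at chr16:23988853-23989002 on the minus strand, then Irf4 at chr13:30749083-30749232 on the plus strand, Eomes at chr9:118478039-118478188 on the plus strand and Sox4 at chr13:28953700-28953849 on the minus strand.
Bcl6: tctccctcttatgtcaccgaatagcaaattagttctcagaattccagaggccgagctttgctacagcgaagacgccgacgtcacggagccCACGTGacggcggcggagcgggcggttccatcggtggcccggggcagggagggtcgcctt
Irf4: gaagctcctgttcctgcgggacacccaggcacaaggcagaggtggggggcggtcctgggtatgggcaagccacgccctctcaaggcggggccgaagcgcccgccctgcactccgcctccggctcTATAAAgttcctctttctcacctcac
Eomes: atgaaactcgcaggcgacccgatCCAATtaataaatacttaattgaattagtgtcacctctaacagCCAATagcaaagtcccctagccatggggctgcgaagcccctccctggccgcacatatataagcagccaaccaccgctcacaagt
Sox4: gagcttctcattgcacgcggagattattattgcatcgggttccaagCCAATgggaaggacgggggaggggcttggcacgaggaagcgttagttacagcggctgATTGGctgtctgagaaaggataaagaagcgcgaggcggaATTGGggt
CACGTG was in 1 of the 8 windows of these genes and in 4.3% of 32851 windows of the same length, TATAAA in 1 of 8 and in 7.6%, and CCAAT in 3 of 8 and in 24.5%. In Bcl6 the CACGTG begins 60 bases before the start, and in Irf4 the TATAAA begins 26 bases before it. In Eomes CCAAT lies at 127 and 84 bases before the start, and in Sox4 at 104, 47 and 8. These are matches of letters. No binding was measured in these samples.

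Counts in genes ran from 11170704 to 15769679 per lymphoma library and from 8099960 to 10808828 per CD4 library. Levels are counts per 1000000 of the scaled library (CPM), on which 3 counts, the most that a count of 0 allows for, equal 0.184 to 0.274 CPM in lymphoma and 0.275 to 0.360 in CD4. Both groups carried T cell genes, with 13 markers summing to 2494 to 5231 CPM in lymphoma and 3788 to 3982 in CD4. The CD4 libraries also held B cell markers (10 genes summing to 1281 to 1540 CPM, against 7.75 to 13.7 in lymphoma), NK markers (177 to 203 against 4.31 to 31.9), plasmacytoid dendritic cell markers (428 to 484 against 47.4 to 115) and Cd8a (25.6 to 31.8 CPM). The lymphomas held other cell markers too. Myeloid markers summed to 52.7 to 1187 CPM in lymphoma, highest in lymphoma 56, against 358 to 434 in CD4. Thymic epithelial markers summed to 8.22 to 51.3 against 1.14 to 5.04, mostly Epcam. Stromal and endothelial markers summed to 79.3 to 152 against 215 to 238, but Dcn, at 1.71 to 7.35 in lymphoma, had no count in CD4. Ddx3y, a Y-linked gene, ran from 119 to 178 CPM in lymphoma and from 0.191 to 0.733 in CD4. Sex and tissue therefore cannot be told apart from lymphoma. Mycn had at most 3 counts in lymphoma and 6 in CD4, so the driver could not be checked. Lymphoma 53 stood apart from the other 5, with log2 CPM correlations of 0.884 to 0.900 across genes against 0.939 to 0.980 among the others. The fold changes of Eomes, Zbtb16, Maf, Sox4 and Bcl6 are given with and without it.

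**Figure D1:**
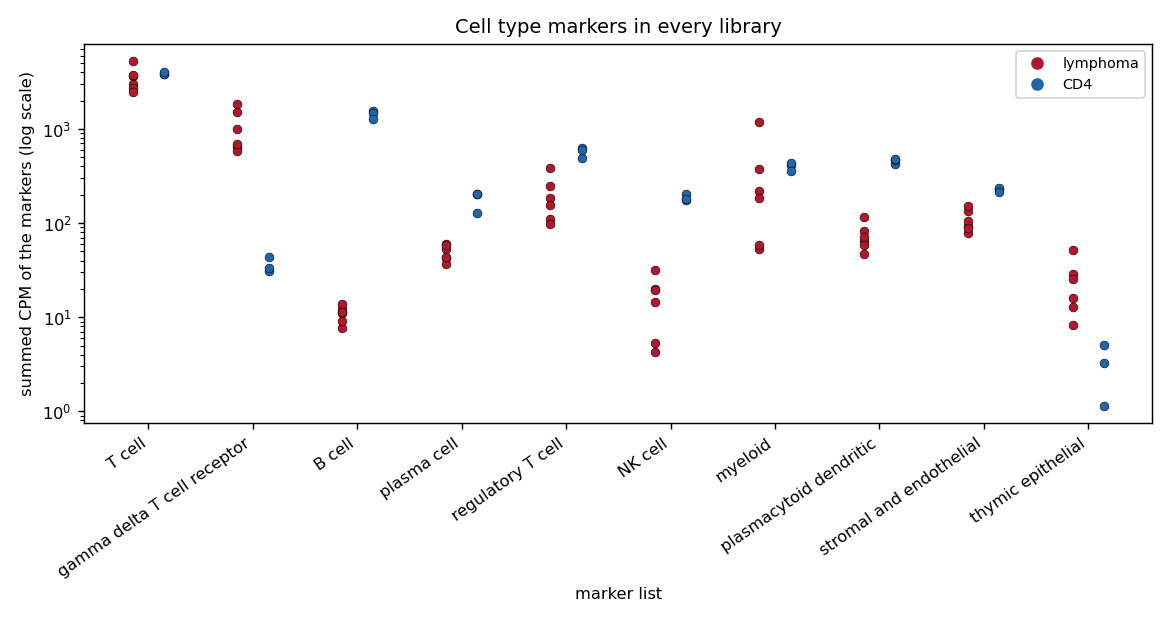
Summed CPM of each cell type marker list (log axis) in the 6 lymphoma and 3 CD4 libraries, 1 point per library. The B cell sum lies between 1281 and 1540 in the CD4 libraries and between 7.75 and 13.7 in the lymphomas.

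Of the 9 factors, 3 rose in lymphoma (Sox13, Zbtb16 and Sox4), 4 fell (Prdm1, Irf4, Bcl6 and Maf) and 2 did not pass the test (Eomes and Tbx21). The test was edgeR's quasi-likelihood test over 15401 genes, of which 46.6% were called at a Benjamini-Hochberg adjusted p under 0.05, 24.7% higher and 21.9% lower in lymphoma. The share called, 7 of 9, is to be read against that background, and the median log2 fold change was -2.27 for the 9 factors and 0.04 for all genes tested. The libraries of the groups did not overlap for 6 of the 9 factors, 5 with CD4 higher and 1 with lymphoma higher, against 44.9% of all genes tested. Sox13 passed the filter on low counts only through the lymphomas and Eomes only through CD4, so for these genes a difference was a condition of being tested. Without lymphoma 53 the count was 8 of 9, Eomes being added. Fewer cells of a type in a bulk sample and less RNA per cell cannot be told apart.

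**Figure D2:**
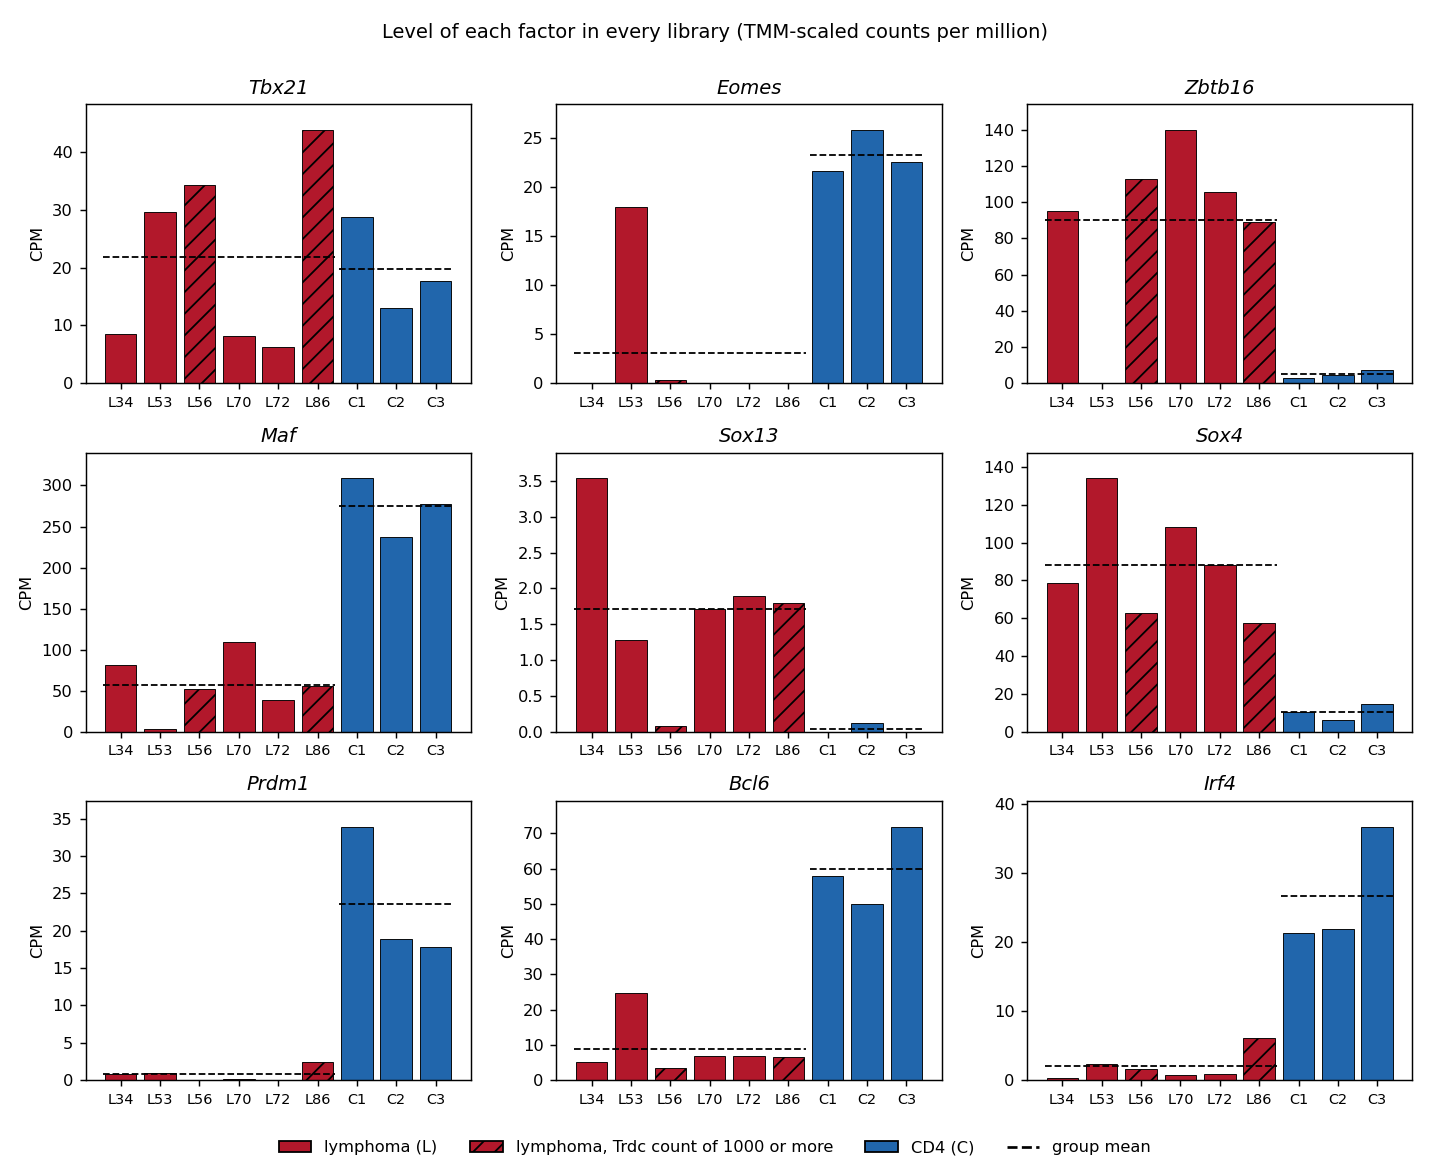
CPM of each factor in each of the 9 libraries (bars, axes starting at 0, hatched for the lymphomas with at least 1000 Trdc counts), with dashed lines at the group means. Sox4 is higher in all 6 lymphomas than in any CD4 library, while Zbtb16 is near 0 in lymphoma 53 alone among the lymphomas.

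**Figure D3:**
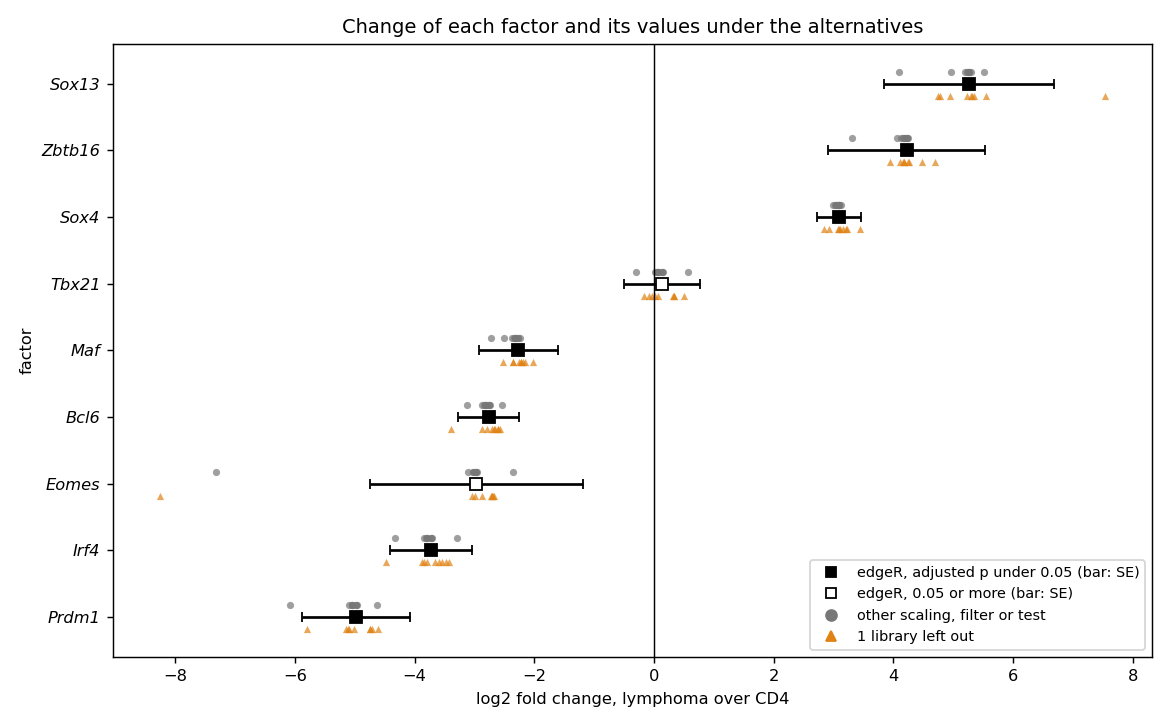
Log2 fold change of each factor, lymphoma over CD4, with its standard error (n = 6 and 3), and the values under the alternative settings as small points. Sox4, Sox13 and Zbtb16 lie above 0, Prdm1, Irf4, Bcl6, Eomes and Maf below it, and Tbx21 has values on both sides.

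Tbx21, the type 1 effector factor, was at similar mean levels in both groups and spread widely among the lymphomas. Its gene lies at chr11:97098071-97115331 on the minus strand (GRCm38). Lymphomas 86, 56 and 53 held 43.9, 34.4 and 29.6 CPM, and lymphomas 34, 70 and 72 held 8.50, 8.14 and 6.21. CD4 1, 2 and 3 held 28.8, 13.1 and 17.7 CPM. Thus 3 lymphomas were above every CD4 library and 3 were below every one. The means were 21.8 ± 16.2 CPM (SD, n = 6) and 19.8 ± 8.08 (SD, n = 3). The log2 fold change was 0.13 ± 0.63 (SE, edgeR quasi-likelihood test, Benjamini-Hochberg adjusted p = 0.883), with a 95% interval from -1.36 to 1.62, which leaves room for a change of over 2-fold either way. Its sign turned in 4 of 19 alternatives, among them the fit without lymphoma 86, at -0.17.

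Eomes, the related factor of memory and cytotoxic cells, was near 0 in every lymphoma except 53. The gene lies at chr9:118478212-118486132 on the plus strand. Lymphomas 34, 53, 56, 70, 72 and 86 gave 1, 197, 4, 0, 0 and 0 counts, and CD4 1, 2 and 3 gave 227, 216 and 246. In CPM lymphoma 53 held 17.96 and the other 5 at most 0.291, while CD4 held 21.6, 25.9 and 22.5. All CD4 libraries were above all lymphomas, and lymphoma 53 was close below them. The means were 3.05 ± 7.31 CPM (SD, n = 6) in lymphoma and 23.4 ± 2.24 (SD, n = 3) in CD4. The log2 fold change of -2.97 ± 1.78 (SE) did not pass edgeR's quasi-likelihood test (Benjamini-Hochberg adjusted p = 0.206). Without lymphoma 53 it was -8.25 and was called, which follows from the filter, passed through CD4, and from leaving out the 1 lymphoma with more than 4 counts.

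Genes of the type 1 effector programme were mostly lower in lymphoma. Of 20 listed, 19 were tested, and 1 rose, 14 fell and 4 did not pass, with a median log2 fold change of -3.37, the same with Gzmb at its bound. Thus 5.26% rose and 73.7% fell, against 24.7% and 21.9% of all genes tested. This list and those below were chosen with earlier results of these data known, so such shares are a description and no test. Of the 19, 8 had fewer than 3 lymphomas at the filter's cutoff of 0.694 CPM and, like Eomes, passed only with CD4. For the 7 of these that fell, being lower in lymphoma was largely a condition of being tested. The same holds for 3 of the falls in the interleukin 17 list, 2 in the innate-like list and 3 in the helper list. Gzmb, a cytotoxic granule protease, had no count in any lymphoma and 2.29 to 3.34 CPM in CD4, which makes it at least 12.5-fold lower against a floor of 3 counts per library. Klrk1, the activating receptor NKG2D, ran from 0 to 0.245 CPM in lymphoma, at most 4 counts, and from 15.8 to 19.1 in CD4. Its log2 fold change of -8.05 ± 0.76 (SE) depends in part on the prior count that the fit adds. The same holds below for other large falls with few lymphoma counts. The riser was Gzma, granzyme A, at 298 to 784 CPM in lymphoma against 63.2 to 73.8 in CD4, a log2 fold change of 2.93 ± 0.29 (SE). Stat4, the transducer of interleukin 12 signals, fell, yet lymphoma 53 held 21.1 CPM of it against a lymphoma median of 0.844 and 95.9 to 118 in CD4. Gzmk, a granzyme of memory-like cells, was not tested and had 12.2 CPM in lymphoma 53, against at most 1.43 in CD4. Other list members were low or absent in lymphoma 53: Ifng and Klrg1 had no count, and Il2rb, at 49.3 CPM, was lowest there among the lymphomas. The NK markers moved with this list, all 7 of 7 being lower in lymphoma, with Ncr1 and Klra7 at 0 in all 6 lymphomas. Of these 7 markers, 6 passed the filter only with CD4, so their falls carry the same condition. The part of NK cells in the falls of Eomes and of the type 1 list was not tested.

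Zbtb16, the innate-like factor PLZF, was high in 5 of the 6 lymphomas and nearly absent from the other. It spans chr9:48654297-48836222 on the minus strand (GRCm38). Lymphomas 34, 56, 70, 72 and 86 held 95.1, 112.8, 140.0, 105.6 and 88.8 CPM, and lymphoma 53 held 0.274 CPM, from 3 counts. CD4 1, 2 and 3 held 2.67, 4.43 and 7.42 CPM. All lymphomas but 53 were above every CD4 library, and 53 was below every one. The means were 90.4 ± 47.6 CPM (SD, n = 6) and 4.84 ± 2.40 (SD, n = 3), and that of the 5 lymphomas without 53 was 108.5 ± 19.9 (SD). The log2 fold change was 4.22 ± 1.31 (SE, edgeR quasi-likelihood test, Benjamini-Hochberg adjusted p = 0.027). Leaving out lymphoma 53 gave 4.47 (adjusted p = 6.14e-07 in the same edgeR test). The call was lost when CD4 1, 2 or 3 was left out (adjusted p = 0.0842, 0.0814 and 0.0643, same edgeR test), with log2 fold changes of 3.95, 4.17 and 4.69. Over all 18 alternatives that tested Zbtb16, the adjusted p ran from 6.14e-07 to 0.404.

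Other innate-like genes did not share this pattern as a group. Of 19 listed, 17 were tested, with 3 that rose, 10 that fell, 4 that did not pass and a median log2 fold change of -1.72. Thus 17.6% rose and 58.8% fell, against 24.7% and 21.9% of all genes tested. Klrb1a, of the NK1.1 receptor family, rose by 3.17 ± 1.03 (log2, SE), at 10.6 to 34.5 CPM in the 5 lymphomas with Zbtb16, 0.365 in lymphoma 53 and 0.476 to 2.47 in CD4. Klrb1c, the NK1.1 antigen itself, was at 9.54 to 61.1 CPM in the same 5 lymphomas, 0 in lymphoma 53 and 22.1 to 32.4 in CD4, and did not pass the test (log2 fold change -0.20). Sh2d1a, the adaptor SAP that natural killer T cells need to develop, rose by 0.97 ± 0.29 (SE), and Gata3, the type 2 and early T lineage factor, by 0.93 ± 0.34 (SE). Among the falls were Il18r1, an interleukin 18 receptor chain (log2 fold change -6.88 ± 0.71, SE), and Icos, a costimulatory receptor (-6.76 ± 0.53, SE). Id2, an inhibitor of E proteins that innate lymphocytes rely on, fell by 3.92 ± 0.19 (SE). Il4 and Il13, cytokines of natural killer T cells, had too few counts to be tested, with at most 9 and 2 counts in a lymphoma library.

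**Figure D4:**
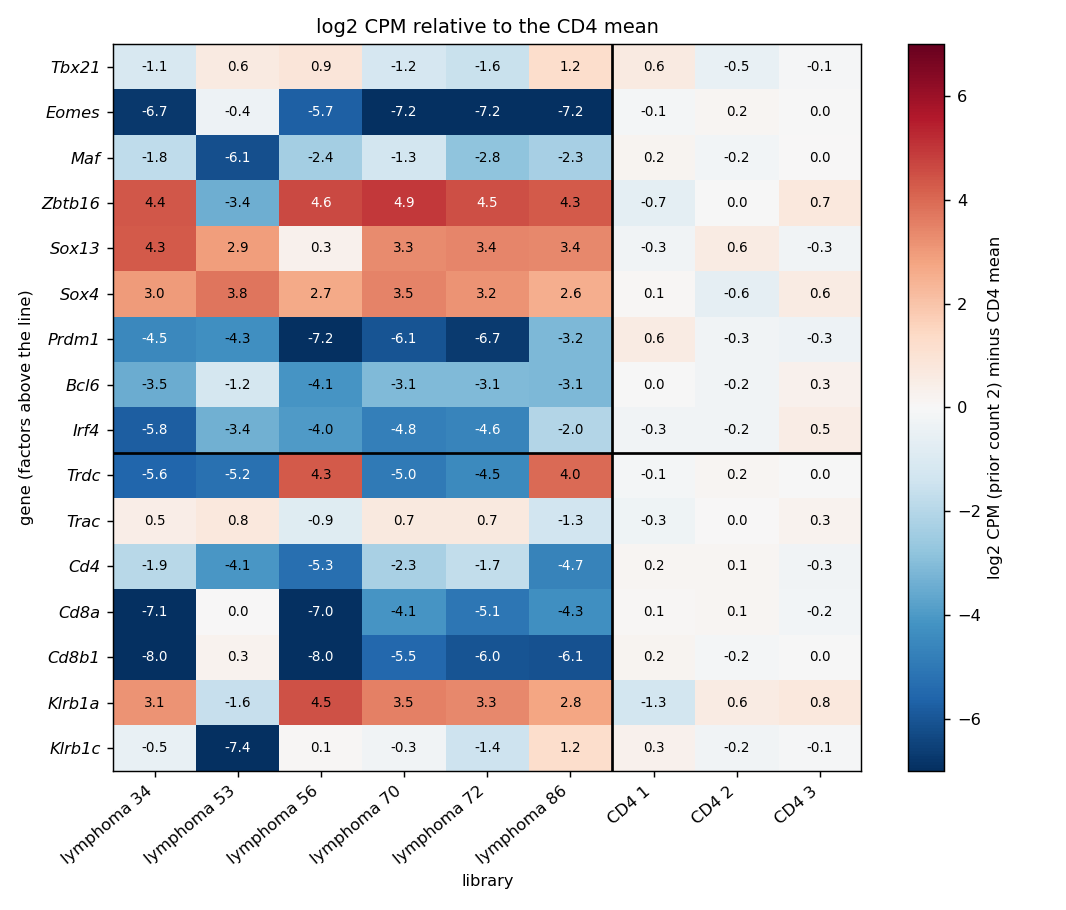
Log2 CPM minus the CD4 mean for the 9 factors and for Trdc, Trac, Cd4, Cd8a, Cd8b1, Klrb1a and Klrb1c in each library (colour and number). Lymphoma 53 differs from the other lymphomas at Zbtb16, Klrb1a, Klrb1c, Eomes, Cd8a and Cd8b1.

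Maf was lower in all 6 lymphomas than in CD4. The gene lies at chr8:115682942-115707794 on the minus strand. Lymphoma levels were 80.7, 3.74, 51.95, 109.8, 38.95 and 55.3 CPM in 34, 53, 56, 70, 72 and 86, against 308.9, 237.5 and 277.5 in CD4 1, 2 and 3. The groups did not overlap, and lymphoma 53 was the lowest. The means were 56.7 ± 36.2 CPM (SD, n = 6) and 274.6 ± 35.8 (SD, n = 3), and Maf fell by 2.27 ± 0.66 on the log2 scale (SE, edgeR quasi-likelihood test, Benjamini-Hochberg adjusted p = 0.019). The fit without lymphoma 53 gave a log2 fold change of -2.03. The adjusted p was 0.0555 without CD4 1 and 0.0503 without CD4 3 in the same edgeR test. Over all 19 alternatives the adjusted p ran from 0.000144 to 0.0629.

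Sox13, a factor of γδ thymocytes, was low throughout and higher in lymphoma. Its position is chr1:133382303-133424377 on the minus strand. Lymphomas 34, 53, 56, 70, 72 and 86 gave 55, 14, 1, 28, 29 and 25 counts, and the CD4 libraries 0, 1 and 0. Lymphomas other than 56, at 1.28 to 3.54 CPM, were above CD4, and lymphoma 56, at 0.0727, lay within the CD4 range. Pooled over libraries, 152 lymphoma counts stood against 1 CD4 count, a ratio of 52.7 on the CPM scale with a 95% interval from 9.32 to 2096 that covers counting error only. The fitted log2 fold change of 5.27 ± 1.42 (SE, edgeR quasi-likelihood test, Benjamini-Hochberg adjusted p = 0.00951) depends on the prior count, and it was 7.54 without CD4 2, which held the single count.

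Sox4, which is active in early thymocytes and many tumours, rose in all 6 lymphomas. Sox4 spans chr13:28948919-28953713 on the minus strand, and its promoter window is the one above with 3 CCAAT matches. Lymphomas 34, 53, 56, 70, 72 and 86 held 78.8, 134.1, 62.6, 108.2, 88.2 and 57.7 CPM, and CD4 held 10.2, 6.11 and 14.6. The lowest lymphoma was above the highest CD4 library, and lymphoma 53 was the highest of all. The means were 88.3 ± 28.9 CPM (SD, n = 6) and 10.3 ± 4.23 (SD, n = 3), a rise of 3.09 ± 0.36 on the log2 scale (SE, edgeR quasi-likelihood test, Benjamini-Hochberg adjusted p = 3.62e-05), or 8.53-fold. Across all 19 alternatives the log2 fold change ran from 2.84 to 3.44 and stayed past the threshold, and it was 2.93 without lymphoma 53.

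The genes of interleukin 17 producing γδ T cells, in which Maf, Sox13 and Sox4 act, were largely lower or undetected. Of 14 listed, 8 were tested, with 1 that rose, 5 that fell and 2 that did not pass, at a median log2 fold change of -3.23. Thus 12.5% rose and 62.5% fell, against 24.7% and 21.9% of all genes tested. Il17a had no count in any library, and Il17f, Il22 and Il23r had at most 5, 1 and 2 counts in a lymphoma library. Ccr6, a chemokine receptor, fell by 7.17 ± 0.60 (log2, SE), and Blk, a Src family kinase that B cells also express, fell by 6.70 ± 0.51 (SE). Both moved with the B cell markers, all 10 of 10 of which fell, 3 of them having passed the filter only with CD4. The part of B cells in the fall of Ccr6 and Blk was not tested. Etv5, an ETS factor of γδ thymocytes, was the riser, at 0.365 to 13.4 CPM in lymphoma against 0.191 to 1.37 in CD4 (log2 fold change 2.88 ± 1.02, SE).

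Bcl6, the follicular helper factor, was lower in every lymphoma. Bcl6 spans chr16:23965052-23988852 on the minus strand, just downstream of the window above that holds CACGTG. Lymphomas 34, 56, 70, 72 and 86 held 5.09, 3.27, 6.73, 6.80 and 6.63 CPM, lymphoma 53 held 24.7, and CD4 1, 2 and 3 held 57.8, 49.9 and 71.9. The groups did not overlap, with lymphoma 53 between the other lymphomas and CD4. The means were 8.87 ± 7.88 CPM (SD, n = 6) and 59.9 ± 11.2 (SD, n = 3), and Bcl6 fell by 2.76 ± 0.51 on the log2 scale (SE, edgeR quasi-likelihood test, Benjamini-Hochberg adjusted p = 0.0012). Without lymphoma 53 the log2 fold change was -3.39. Gm37419, annotated on the opposite strand within Bcl6, had at most 134 counts in a CD4 library, and since no strand setting is given, reads of this pair cannot be told apart.

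Prdm1, which encodes Blimp-1, was close to the detection floor in the lymphomas. It is annotated at chr10:44437177-44528501 on the minus strand. Lymphomas 34, 53, 56, 70, 72 and 86 gave 13, 11, 0, 3, 1 and 33 counts, against 356, 157 and 195 in CD4. In CPM the lymphomas ran from 0 to 2.38, highest in lymphoma 86, with a median of 0.510, and CD4 held 33.9, 18.8 and 17.9, without overlap. The means were 0.745 ± 0.903 CPM (SD, n = 6) and 23.5 ± 9.01 (SD, n = 3), and Prdm1 fell by 4.98 ± 0.90 (log2, SE, edgeR quasi-likelihood test, Benjamini-Hochberg adjusted p = 0.0011). Without lymphoma 86 the log2 fold change was -5.80.

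Irf4, induced by antigen receptor signals, was likewise lower in every lymphoma. The gene lies at chr13:30749226-30766976 on the plus strand, behind the window above that holds TATAAA. Lymphomas 34, 53, 56, 70, 72 and 86 held 0.322, 2.37, 1.53, 0.795, 0.915 and 6.13 CPM, and CD4 held 21.3, 21.9 and 36.7. Lymphoma 86 was again the highest lymphoma, as for Prdm1, and the groups did not overlap. The means were 2.01 ± 2.14 CPM (SD, n = 6) and 26.7 ± 8.72 (SD, n = 3), and Irf4 fell by 3.73 ± 0.68 (log2, SE, edgeR quasi-likelihood test, Benjamini-Hochberg adjusted p = 0.00099). Without lymphoma 86 the log2 fold change was -4.48.

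B cells, plasma cells and regulatory T cells can also express Bcl6, Prdm1, Irf4 or Maf, and the summed levels of their markers were higher in the CD4 libraries. The B cell sums are given above, plasma cell markers summed to 127 to 205 CPM in CD4 and 36.5 to 59.7 in lymphoma, and regulatory T cell markers to 487 to 629 and 97.6 to 379.5. Of the plasma cell markers tested, 3 of 5 fell and Sdc1, syndecan 1, rose (6.76 to 21.4 CPM in lymphoma against 1.01 to 2.10 in CD4). Of the regulatory T cell markers 6 of 7 fell, and Ikzf2, which did not pass the test, reached 361 CPM in lymphoma. Among all genes tested 21.9% fell. The filter was passed only with CD4 by 1 plasma cell marker and 4 regulatory T cell markers, all of which fell. Foxp3, which defines regulatory T cells, held 26.1 to 68.5 CPM in CD4 and at most 0.433 in lymphoma. The part of these cells in the fall of the 4 factors was not tested.

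Genes of helper and follicular helper T cells were mostly lower or did not pass the test. All 16 listed were tested, and 2 rose, 8 fell and 6 did not pass, with a median log2 fold change of -1.38. Thus 12.5% rose and 50% fell, against 24.7% and 21.9% of all genes tested. Pdcd1, the inhibitory receptor PD-1, rose, at 49.8 to 257 CPM in lymphoma against 2.67 to 7.33 in CD4 (log2 fold change 4.29 ± 0.69, SE). Il6st, the gp130 chain of the interleukin 6 receptor, rose by 0.46 ± 0.17 (SE), while its partner Il6ra fell by 5.11 ± 0.47 (SE). Tnfsf8, the CD30 ligand, fell by 7.21 ± 0.56 (SE), and Cd40lg, the helper signal to B cells, by 7.0 ± 0.64 (SE). Cxcr5, the receptor that brings T cells to follicles, fell by 2.47 ± 0.43 (SE). Lymphoma 53 was the highest of the lymphomas for Bcl6. It held 241 CPM of the B cell and follicular helper coactivator Pou2af1, 46.2 of S1pr2 and 42.8 of Tox2. The lymphoma medians were 32.9, 7.72 and 4.84, and none of these 3 genes passed the test. Most genes of the list were highest in lymphoma 53 among the lymphomas, also Pdcd1, Tox, Cxcr5, Il6st, Cd200, Ascl2, Btla and Tnfsf8. The rest were not: Cd40lg had no count there, and Cebpa, at 0.638 CPM, was lowest there. Il21 had no count in lymphomas 53 and 34, and Il10 and Il6ra were higher in another lymphoma.

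Partners and corepressors that these factors use moved both ways. All 21 listed were tested, with 7 that rose, 9 that fell, 5 that did not pass and a median log2 fold change of -0.14, so 33.3% rose and 42.9% fell, against 24.7% and 21.9% of all genes tested. Hdac2, a histone deacetylase, rose by 1.26 ± 0.16 (SE), and Ehmt2, the H3K9 methyltransferase G9a, by 0.98 ± 0.24 (SE). Jun, an AP-1 subunit that pairs with Batf beside Irf4, ran from 1.16 to 4.01 CPM in lymphoma and from 126 to 909 in CD4 and fell by 7.49 ± 0.64 (SE). Junb fell by 3.18 ± 0.36 (SE) and Batf by 1.01 ± 0.29 (SE). Of the HMG-box factors Tcf7 and Lef1, which favour Bcl6 in follicular helper cells, Tcf7 rose by 0.90 ± 0.17 (SE) and Lef1 fell by 1.77 ± 0.15 (SE).

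**Figure D5:**
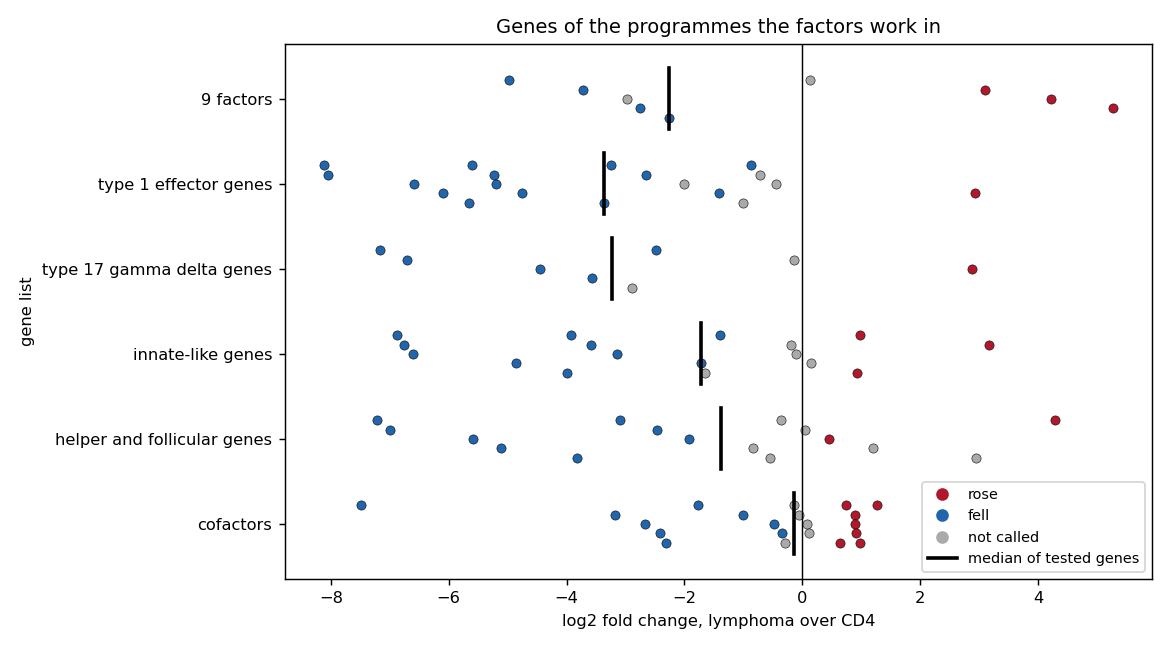
Log2 fold change, lymphoma over CD4, of the 9 factors and of each tested gene of the 5 pathway lists (points), with the median of each list as a bar. The medians of the pathway lists run from -3.37 for the type 1 effector genes to -0.14 for the cofactors.

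Trdc, the T cell receptor δ constant gene, divides the lymphomas. Lymphomas 56 and 86 had 4351 and 3600 Trdc counts, the other 4 had 3 to 9, and the CD4 libraries 151 to 173. Since the division rests on a measured value, levels are set side by side without a test. Tbx21 was 34.4 and 43.9 CPM in lymphomas 56 and 86 and 6.21 to 29.6 in the other 4, and Sox4 was 62.6 and 57.7 against 78.8 to 134.1. For these 2 factors the ranges did not overlap. The share of all genes tested that do not overlap in this split was not counted, so no link to Trdc is drawn. The ranges of the other 7 factors overlapped. Zbtb16 ran from 88.8 to 112.8 CPM against 0.274 to 140.0. Maf ran from 51.95 to 55.3 against 3.74 to 109.8, and Sox13 from 0.0727 to 1.80 against 1.28 to 3.54. Bcl6 ran from 3.27 to 6.63 CPM against 5.09 to 24.7, Irf4 from 1.53 to 6.13 against 0.322 to 2.37, Prdm1 from 0 to 2.38 against 0.0654 to 1.003, and Eomes from 0 to 0.291 against 0 to 17.96. Lymphoma 86 held the highest Irf4 and Prdm1 of the 6, and lymphoma 56 the lowest Prdm1, Bcl6 and Sox13. Trac, the α constant gene, was 322 and 234 CPM in 56 and 86 and 815 to 986 in the other 4. The γ constant genes summed to 1522 and 1258 CPM in 56 and 86, 575 to 999 in the other 4 and 12.9 to 28.7 in CD4. Each of Tcrg-C1, Tcrg-C2 and Tcrg-C4 was higher in all 6 lymphomas than in any CD4 library.

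Lymphoma 53 broke the order in another way. It held the lowest Zbtb16 and Maf of the lymphomas and the highest Eomes, Bcl6 and Sox4, together with 29.4 CPM of Cd8a and 47.5 of Cd8b1, the chains of the CD8 coreceptor, against at most 1.53 and 0.734 in the other 5. In each lymphoma at least 8 of the 9 factors lay outside the CD4 range, the exception being Sox13 in lymphoma 56. The range of 3 CD4 libraries is narrow, and 73.7% to 77.5% of all genes tested also lay outside it in a lymphoma library.

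Genes whose log2 CPM followed each factor most closely over the 6 lymphomas were sought among 9394 genes (9395 for Sox13). The values are a description with no test, over 6 libraries scaled together. Several follow the level in lymphoma 53, and they were not computed without it. For Zbtb16 they were Gm38067 and Gcc2 (r = 0.999 each) and Tmf1 (0.998), all lowest in lymphoma 53. For Eomes they were Mtus2 (0.999), Trim25 and Tnpo2 (0.997 each), all highest in lymphoma 53. For Bcl6 they were Kif22 (0.996), 2610318N02Rik (0.994) and Brms1 (0.993), and for Sox4 Rapgef3 and Parp11 (0.991 each) and Dusp5 (0.990), again highest in 53. Maf was closest to Dicer1 (0.996), Eif2ak2 (0.992) and Pdzd8 (0.990), which were lowest in 53. Tbx21 was closest to Pde4dip (0.991), Fndc3b (0.990) and Il10ra (0.989), Irf4 to Dph3 (0.998), Ubl5 (0.993) and Otud6b (0.984), Prdm1 to Uxt (0.979), Tmem186 (0.975) and Ssr1 (0.971), and Sox13 to Slx4 (0.982), Hagh and Themis2 (0.972 each).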

How the data were processed

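RNA 3′ ends of 6 lymphoma and 3 CD4 T cell samples were sequenced. The authors deposited raw read counts per Ensembl gene and library, per the file headers, for 46078 genes and 5 summary rows. The submitters' processing notes name FastQC, HISAT2, SAMtools and HTSeq and the build GRCm38 (mm10). Versions, annotation and strand setting are not given in the sources used here. Summary rows, 50.9% to 61.3% of reads in lymphoma and 65.0% to 72.2% in CD4, were left out of library sizes and tests.

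The group difference was fitted to the counts by edgeR 4.0.16 (R 4.3.3): filterByExpr with a minimum count of 10 (15401 genes), TMM scaling, robust glmQLFit and glmQLFTest, no covariate, Benjamini-Hochberg adjustment over all tested genes and a threshold of 0.05. The test was also run on counts simulated from its own dispersions and from means shared by both groups, with few genes changed. That run does not cover genes nearly confined to a single group, such as Sox13. Fold changes are lymphoma over CD4, and their SE was derived from the size of the change and the F statistic. CPM uses TMM-scaled libraries, and log2 CPM a prior count of 2. The interval of the pooled Sox13 ratio and the floors cover counting error only. The 95% interval of Tbx21 comes from the SE of its fold change, on 7 residual degrees of freedom. Gene coordinates are from GENCODE M21 and promoter windows from RefSeq. Alternatives were other scalings, filters, thresholds and tools (limma 3.58.1, DESeq2 1.42.0), an average of 3 lymphomas, and each library left out.

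All 9 factors are named, with, of each pathway list, the 2 largest called rises and falls and others of those lists, and, for each factor, the 3 genes with the highest Pearson r over the lymphomas (average log2 CPM of at least 3). Members and lists were chosen with earlier results of these data known. A single gene of the lists is left out of the text by name.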

Additional observations from a re-analysis of the deposited data

Results flagged for a closer look

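Of the 9 factors, 4 had 1 lymphoma far from the other 5, measured as the gap to the nearest library divided by the range of the group, and that ratio was past Dixon's critical value for 6 samples. That value is set to flag about 1 in 20 groups by chance. Of all 15401 genes tested, 16.8% had a lymphoma past it, and in 70.1% of these the distant library was lymphoma 53. Lymphoma 53 was the distant library for 3 of them. For Eomes it was high, at 17.96 CPM against at most 0.291 in the others (ratio 0.9838). For Bcl6 it was high, at 24.7 CPM against 3.27 to 6.80 (ratio 0.8355). For Zbtb16 it was low, at 0.274 CPM against 88.8 to 140.0 (ratio 0.6337). The fourth was Irf4 in lymphoma 86, high at 6.13 CPM against 0.322 to 2.37 (ratio 0.6471).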

How the results depend on the processing

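Sox4, Prdm1, Bcl6 and Irf4 kept direction and call in every alternative that tested them (19 for Sox4 and Bcl6, 18 for Prdm1 and Irf4). The count of 7 factors called ran from 5 to 8 with 1 library left out. It was 3 of the 4 factors tested when at least 10 counts were required in every library, a filter that removed Eomes, Zbtb16, Sox13, Prdm1 and Irf4. Tbx21 turned sign under limma voom (-0.30), and its log2 fold change ran from -0.17 to 0.50 with 1 library left out, negative without lymphoma 56 (-0.04), lymphoma 86 (-0.17) or CD4 2 (-0.09). Eomes passed the test under limma voom (-7.32) and without lymphoma 53 (-8.25). Without a filter on low counts Maf and Zbtb16 lost their calls and the median of all genes moved to 0.20. Under limma voom Zbtb16 (3.31) and Sox13 (4.09) lost theirs, as did Zbtb16 with lymphomas 34, 70 and 72 averaged (4.06). That average gave -2.36 for Eomes, and limma voom gave -6.09 for Prdm1 and -4.33 for Irf4. At an adjusted p under 0.01, 5 factors were called, Maf and Zbtb16 being lost. Over all genes the count of calls, 7174, stayed between 4915 (adjusted p under 0.01) and 8137 (without lymphoma 53). No paired analysis was possible because the groups share no replicate number. Depth limits Sox13, with 3 of 3 CD4 libraries at or under the floor of 3 counts, Eomes, with 4 of 6 lymphomas, and Prdm1, with 3 of 6.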
